A study of Homo sapiens with 4 samples.

Results

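The genes described here are 34 genes of protein folding, quality control and stress sensing in the endoplasmic reticulum (ER), out of 20137 genes whose RNA was sequenced in cultured MDA-MB-231 cells. They were picked by name, each name matched 1 gene ID, and they fall into 18 chaperones and folding enzymes, 10 factors of ER-associated degradation (ERAD), 4 genes of stress sensing (the sensors ATF6, ATF6B and ERN1, and XBP1) and 2 subunits of the translocon, the channel through which new proteins enter the ER. MDA-MB-231 is an established human line from a triple-negative breast cancer. The tested cells carried a knockdown of AURKA, the mitotic kinase Aurora A (genotype AURKA KD, titled shA, 2 libraries), and the reference cells were labelled control (titled shC and called mock-transfected in the design text, 2 libraries). The labels do not say how or for how long AURKA was silenced, or whether the control cells carried a hairpin. The 2 libraries of each group are called biological replicates, with nothing said of separate days, so p-values measure only the spread between these samples.

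Proteins that enter the ER are folded by the Hsp70 BiP (HSPA5) and its helpers, by the lectin chaperones calnexin and calreticulin, and by disulfide isomerases. Proteins that fail to fold are recognised, pulled back through the membrane and destroyed, which is ERAD. When unfolded proteins accumulate, the membrane sensors ATF6, IRE1 (ERN1) and PERK (EIF2AK3) raise transcription of these genes. IRE1 does so by cutting a short segment out of XBP1 mRNA, which shifts the reading frame and yields an active transcription factor.

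Some of these genes share short promoter elements that ATF6 and XBP1 are known to bind. Exact matches to these elements are shown, and they sort the genes by sequence, not by the factors that act on them. RefSeq promoter windows (300 bases, from 250 before to 50 after each gene start, GRCh38.p14) were matched for 31 of the 34 genes. The ER stress element ERSE (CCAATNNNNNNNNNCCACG) was present on either strand in 8 of these 31 genes, against 25 of all 27305 genes with a window (0.0916%). ERSE-II (ATTGG and CCACG with 1 base of any kind between them) was present in 3 of the 31, against 0.0696% of all genes, and the core TGACGTGG of the unfolded protein response element in 2 (HYOU1 and DNAJC10), against 0.927%. In HYOU1 this core overlapped an ERSE-II. Counting any of these motifs, 10 of 17 chaperone and folding genes and 1 of 8 ERAD genes held a match. So did 1 of 4 genes of stress sensing and 0 of 2 translocon genes, against 1.08% of all genes. A match describes letters in the window and no binding was measured. A missing match does not show that these factors do not act on a gene. The ERSE matches are written in the direction of the motif, with its fixed bases in capitals:

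HSPA5, chr9:125241391-125241409, minus strand: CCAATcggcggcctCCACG
HSP90B1, chr12:103930216-103930234, plus strand: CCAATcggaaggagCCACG
HSP90B1, chr12:103930321-103930339, minus strand: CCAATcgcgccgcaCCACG
CRELD2, chr22:49918554-49918572, minus strand: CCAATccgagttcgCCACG
CALR, chr19:12938384-12938402, minus strand: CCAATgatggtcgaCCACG
CANX, chr5:179698778-179698796, plus strand: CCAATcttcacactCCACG
PDIA6, chr2:10812853-10812871, minus strand: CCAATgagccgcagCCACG
ERO1LB, chr1:236282183-236282201, plus strand: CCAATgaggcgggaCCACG
XBP1, chr22:28800603-28800621, minus strand: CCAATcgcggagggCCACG

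The 3 genes with ERSE-II held these matches, and HYOU1 held it at 2 positions:

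HERPUD1, chr16:56932025-56932035, plus strand: ATTGGgCCACG
HYOU1, chr11:119057380-119057390, plus strand: ATTGGaCCACG
HYOU1, chr11:119057274-119057284, plus strand: ATTGGaCCACG
SDF2L1, chr22:21642114-21642124, minus strand: ATTGGtCCACG

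The whole windows of HERPUD1, the 1 gene of the 34 that passed in the fit with the run, and of HSPA5, the main ER chaperone, follow with their motif in capitals. HERPUD1 lies at chr16:56931892-56932191, plus strand, and HSPA5 at chr9:125241294-125241593, minus strand:

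HERPUD1: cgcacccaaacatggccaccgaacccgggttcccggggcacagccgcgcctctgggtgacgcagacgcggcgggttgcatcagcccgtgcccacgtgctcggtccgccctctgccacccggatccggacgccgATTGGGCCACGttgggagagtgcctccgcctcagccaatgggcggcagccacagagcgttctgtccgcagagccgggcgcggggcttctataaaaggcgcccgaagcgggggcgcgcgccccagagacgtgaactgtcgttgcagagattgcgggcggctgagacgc
HSPA5: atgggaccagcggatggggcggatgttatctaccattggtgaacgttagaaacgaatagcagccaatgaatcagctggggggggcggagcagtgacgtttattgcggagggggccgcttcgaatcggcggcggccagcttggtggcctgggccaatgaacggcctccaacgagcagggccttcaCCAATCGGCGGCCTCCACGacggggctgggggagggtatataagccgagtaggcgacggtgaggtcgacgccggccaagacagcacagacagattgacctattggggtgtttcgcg

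Values are sums of transcript values in FPKM (fragments per kilobase of transcript, scaled to library size), and differences are knockdown minus control on log2(FPKM + 1). Summed FPKM per library were 718790 to 761448, with 17.0% to 19.0% in mitochondrial genes in the knockdown libraries and 16.0% to 17.6% in the controls. The files hold no read totals. The steps between low values put the depth of the knockdown library at 1.22 times that of its control in replicate 1 and 1.14 times in replicate 2. AURKA itself had 22.3 and 23.7 FPKM in the knockdown libraries and 124 and 99.1 FPKM in the controls, a difference of -2.22 (adjusted p in limma 0.0819 without and 0.000696 with the quantification run as a term). Markers of the line were high in all 4 libraries (VIM at 1701 FPKM or more). Summed markers stayed at or below 0.367 FPKM for leukocytes and 0.13 FPKM for endothelial cells. Those of fibroblasts summed to at most 3.64 FPKM. Luminal breast markers, expected low or absent, summed to 9.74 to 10.5 FPKM, with FOXA1 at 4.15 to 5.66 FPKM. The files of a replicate number share their transcript set and row order and differ in both from the other number. Each number is therefore taken as 1 quantification run with 1 library of each group. The labels do not say whether a number is also a culture or sequencing batch. A term for the run takes up any such difference too. The test across all 12136 genes (limma, Benjamini-Hochberg adjustment, threshold 0.05) was fitted once without the run and once with it as a term.

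Across the 34 genes most values were slightly higher in the knockdown, and few differences were large. Of 33 genes tested, 22 had a difference above 0 and 11 below, with a median of 0.12 against 0.01 over all tested genes. The range was -0.40 to 0.61. In limma without the run 0 of the 33 passed, as did 0 of all 12136 genes (0.0%), while 3 of the 33 and 773 of all genes had an unadjusted p under 0.05. With the run as a term 1 gene rose (HERPUD1) and 0 fell, against 1.53% of all genes called higher and 1.90% called lower. In that fit the unadjusted p was under 0.05 in 15 of the 33 and in 2683 of all 12136 genes. Both knockdown libraries lay above both controls in 16 of the 33 genes, against 19.4% of all tested genes, and below both in 3, against 16.6%. The difference was above 0 in both replicate numbers in 21 of the 33, against 35.3% of all genes, and below 0 in both in 5, against 31.7%. The median was 0.14 in replicate 1 and 0.17 in replicate 2, and without knockdown replicate 2 it was 0.07. Over all tested genes these medians were -0.01, 0.03 and 0.03 in the same order. In RNA from a culture, more RNA per cell and more cells holding it cannot be told apart.

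**Figure D1:**
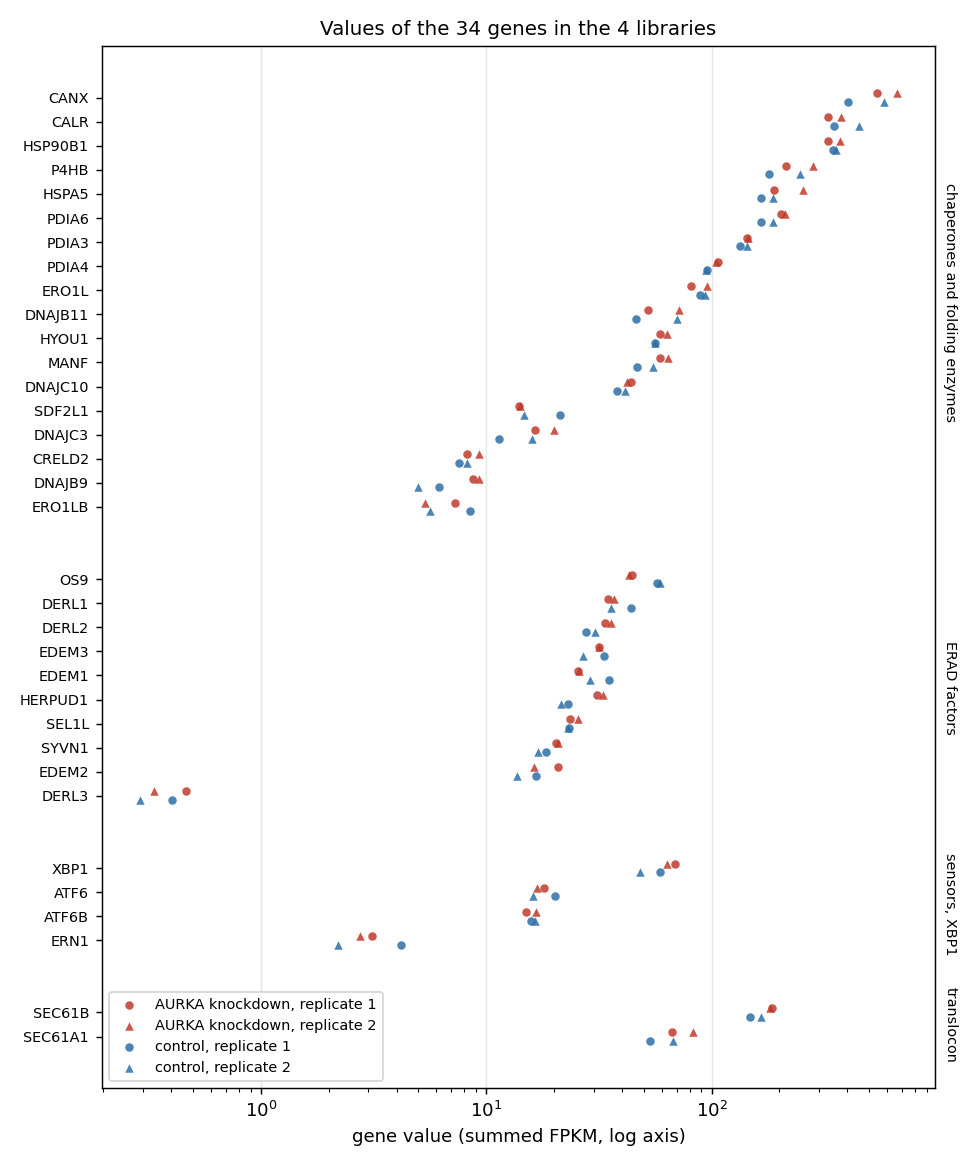
FPKM of each of the 34 genes in each library (log axis), with knockdown in red, control in blue, circles for replicate 1 and triangles for replicate 2. Calnexin (CANX) is highest at 402 to 666 FPKM and DERL3 lowest at 0.290 to 0.467 FPKM, and the groups lie close together for most genes.

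Among the Hsp70 system of the ER, BiP and 3 genes that work with it had the largest positive differences. HSPA5 (ENSG00000044574) had 189 and 255 FPKM in the knockdown libraries and 166 and 187 FPKM in the controls. Both knockdown values lay above both controls, and the first of them only just above the higher control. The difference of 0.32 (SE 0.18) had an adjusted p of 0.841 in limma without the run and 0.11 with it. It was 0.10 without knockdown replicate 2 and 0.53 without knockdown replicate 1.

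DNAJB9 (ERdj4), a BiP co-chaperone that hands misfolded proteins to ERAD, had the largest difference of the 33. Its values were 8.75 and 9.30 FPKM in the knockdown and 6.17 and 5.003 FPKM in the controls, 1.62-fold higher on average. The groups did not overlap, and the differences were 0.44 in replicate 1 and 0.78 in replicate 2. The adjusted p in limma was 0.569 without and 0.0631 with the run. In the files DNAJB9 shares its locus with THAP5, and no source used here says whether reads were assigned by strand.

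DNAJC3 (p58IPK), a co-chaperone that also restrains PERK, had 16.5 and 19.99 FPKM in the knockdown and 11.4 and 15.9 FPKM in the controls. The groups did not overlap, but the higher control lay just under the lower knockdown value. Its difference was 0.41 (SE 0.20), and the adjusted p in limma was 0.822 without and 0.0866 with the run. Its difference was 0.18 without control replicate 1, 0.27 without knockdown replicate 2 and 0.63 without control replicate 2. MANF, a secreted factor that binds BiP, had 59.1 and 64.4 FPKM in the knockdown and 46.6 and 54.7 FPKM in the controls. It too did not overlap (difference 0.28, adjusted p in limma 0.807, and 0.108 with the run), and its difference was 0.17 without control replicate 1.

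The other members of this system were closer. HYOU1, the large Hsp70 relative that exchanges the nucleotide on BiP, had 59.0 and 63.6 FPKM in the knockdown and 56.0 and 56.2 FPKM in the controls. CRELD2, an ER stress-induced secreted protein, and DNAJC10 (ERdj5), a disulfide reductase that serves ERAD, had differences of 0.13 and 0.12. The groups of HYOU1, CRELD2 and DNAJC10 did not overlap. DNAJB11 (ERdj3) had 52.1 and 72.0 FPKM in the knockdown and 46.3 and 69.9 FPKM in the controls. Its difference between replicates 2 and 1 was 0.46 in the knockdown and 0.58 in the control, larger than that between the groups, 0.10. HSP90B1 (GRP94), the Hsp90 of the ER, had 327 and 371 FPKM in the knockdown and 345 and 355 FPKM in the controls, with overlapping groups and a difference of -0.01 that turned to 0.03 after rescaling without mitochondrial genes. HSP90B1 has processed pseudogenes, so its reads may be shared with other loci.

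SDF2L1, which keeps the BiP and ERdj3 cycle running, was lower in the knockdown, at 14.0 and 14.2 FPKM against 21.3 and 14.6 FPKM in the controls. The distance rests on control replicate 1: the difference was -0.57 in replicate 1 and -0.04 in replicate 2. Its mean difference of -0.31 became -0.05 without control replicate 1. The adjusted p in limma was 0.857 without and 0.258 with the run.

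The lectin chaperones had differences of opposite sign, and neither passed. CANX, which holds glycoproteins at the membrane, had 544 and 666 FPKM in the knockdown and 402 and 584 FPKM in the controls. CALR, its soluble counterpart, had 328 and 374 FPKM in the knockdown and 349 and 450.0 FPKM in the controls. The groups overlapped for both genes, and within each replicate number CANX was higher in the knockdown (0.44 and 0.19) and CALR lower (-0.09 and -0.27). Both were higher in replicate 2 in either group, by 0.29 in the knockdown and 0.54 in the control for CANX. With the run as a term the adjusted p in limma was 0.13 for CANX and 0.292 for CALR. The CANX difference of 0.31 was 0.04 without control replicate 1, 0.17 without knockdown replicate 2 and 0.58 without control replicate 2.

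All 4 disulfide isomerases were higher in the knockdown within both replicate numbers, by small amounts. PDIA6 had 202.5 and 212 FPKM in the knockdown and 165 and 187 FPKM in the controls. PDIA4 had 106.5 and 104 FPKM in the knockdown and 95.9 and 94.8 FPKM in the controls. In neither gene did the groups overlap, and with the run as a term the adjusted p in limma was 0.153 and 0.32. P4HB, the classic protein disulfide isomerase, had 214 and 281 FPKM in the knockdown and 179 and 248 FPKM in the controls, which overlapped. PDIA3, which works with calnexin and calreticulin, had a difference of 0.06, and a processed pseudogene may share its reads.

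The oxidases that recharge these isomerases did not follow them. ERO1L (ERO1A) had 81.1 and 95.2 FPKM in the knockdown and 88.5 and 93.2 FPKM in the controls. ERO1LB (ERO1B) had 7.30 and 5.36 FPKM in the knockdown and 8.46 and 5.64 FPKM in the controls. In both genes the groups overlapped. The main ERO1LB transcript in the files (ENST00000354619) made up 55.1% and 57.3% of the gene in the knockdown and 75.5% and 70.5% in the controls. This split is an estimate of the authors' program and was not tested.

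Over all 18 chaperone and folding genes the median difference was 0.13, with 13 above and 5 below 0. The knockdown libraries lay above both controls in 10 of them and below both in 1 (SDF2L1), against 19.4% and 16.6% of all tested genes. In either fit 0 of the 18 passed. Among all genes 0.0% passed without the run, and with it 1.53% were called higher and 1.90% lower. Leaving out 1 library moved this median to 0.20 without knockdown replicate 1, to 0.07 without knockdown replicate 2, to 0.07 without control replicate 1 and to 0.18 without control replicate 2.

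**Figure D2:**
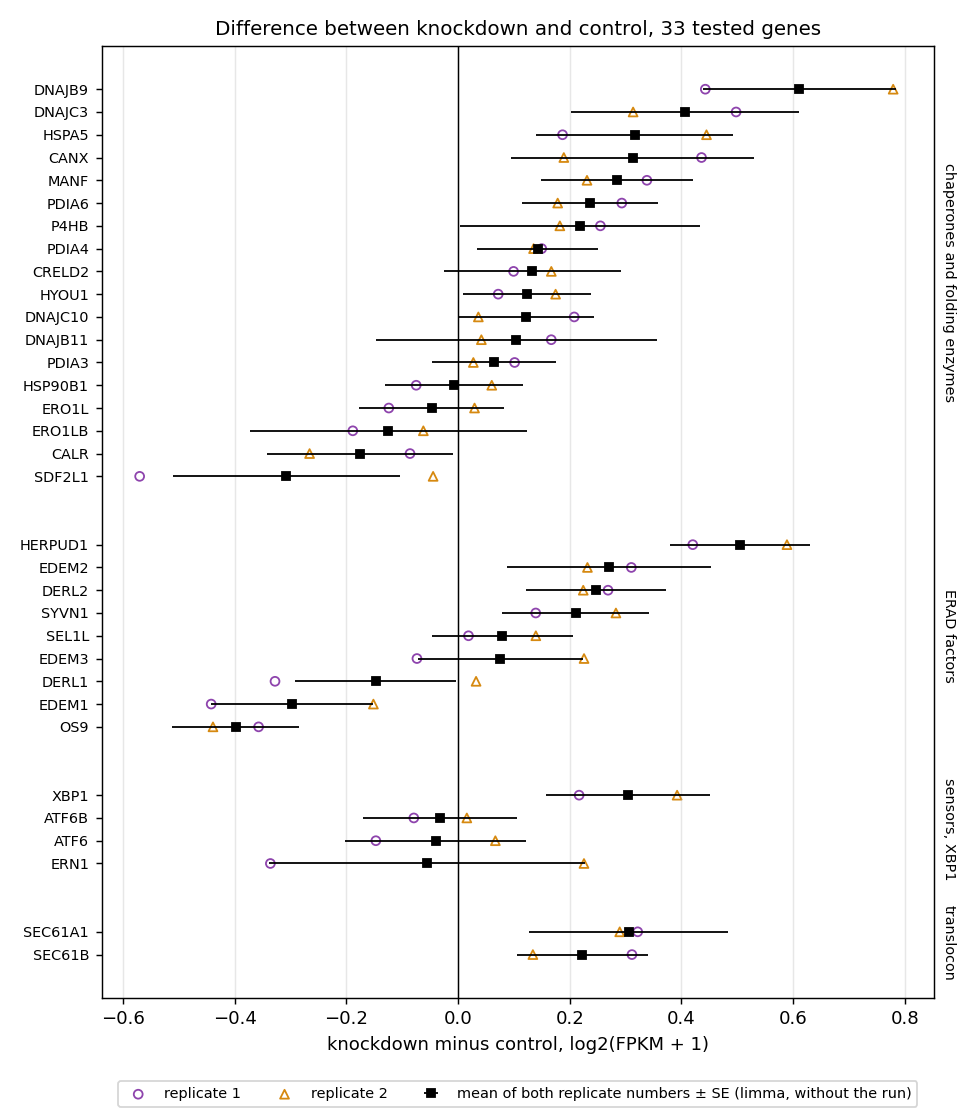
Knockdown minus control on log2(FPKM + 1) for the 33 tested genes: black squares are the mean with its standard error from limma without the run, circles replicate 1 and triangles replicate 2. DNAJB9 (0.61) and HERPUD1 (0.50) are the highest and OS9 (-0.40) the lowest.

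Among the ERAD genes, HERPUD1 rose in the fit with the run, and OS9 lay lowest of all the members. HERPUD1 (ENSG00000051108, locus on chromosome 16, 56965960 to 56977798, GRCh37) helps to assemble the ubiquitin ligase complex at the ER membrane and is a known target of the unfolded protein response. It had 31.1 and 32.9 FPKM in the knockdown and 23.0 and 21.5 FPKM in the controls (32.0 ± 1.25 and 22.3 ± 1.05, SD, n = 2 each). The groups lay well apart, with a 1.44-fold difference and log2 differences of 0.42 in replicate 1 and 0.59 in replicate 2. The adjusted p in limma was 0.537 without the run and 0.0405 with it. With the run and a pseudocount of 0.1 it was 0.0551, and 0.184 with no filter on low values, so this call depends on how low genes are treated. Its leading transcript (ENST00000439977) had 24.3 and 25.5 FPKM in the knockdown and 20.2 and 17.1 FPKM in the controls, a log2 difference of 0.40.

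OS9, a lectin that brings misfolded glycoproteins to the ligase, was lower in the knockdown. It had 44.5 and 43.1 FPKM in the knockdown and 57.3 and 58.8 FPKM in the controls (43.8 ± 1.005 and 58.1 ± 1.04, SD, n = 2 each). The groups lay far apart relative to their spread, 1.33-fold lower, with differences of -0.36 and -0.44 in replicates 1 and 2. The adjusted p in limma was 0.577 without the run and 0.0519 with it, just outside the threshold. With the run and each of 3 other scalings, or a filter at 5 FPKM, OS9 passed (adjusted p in limma 0.0308 to 0.0484). With the run and a pseudocount of 0.1, or with the run and no filter on low values, OS9 did not pass. Its value is spread over 11 transcripts, and the leading one held 22.5% to 30.1% of it.

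EDEM1, a mannosidase-like factor that marks glycoproteins for ERAD, also lay below both controls, at 25.5 and 25.8 FPKM in the knockdown and 35.1 and 28.8 FPKM in the controls (difference -0.30, adjusted p in limma 0.815, and 0.16 with the run). Without control replicate 1 its difference was -0.16. Its relatives did not share this. EDEM2 had 20.9 and 16.3 FPKM in the knockdown and 16.7 and 13.8 FPKM in the controls, higher in the knockdown within both replicate numbers. EDEM3 had 31.6 and 31.7 FPKM in the knockdown and 33.3 and 26.9 FPKM in the controls, with the knockdown between the 2 controls.

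The ubiquitin ligase SYVN1 (HRD1) had 20.5 and 20.8 FPKM in the knockdown and 18.5 and 16.9 FPKM in the controls, and its partner SEL1L had 23.6 and 25.6 FPKM in the knockdown and 23.3 and 23.1 FPKM in the controls. In neither did the groups overlap, and SEL1L replicate 1 differed by 0.02. Of the derlins, membrane proteins of the exit channel, DERL2 had 33.7 and 35.7 FPKM in the knockdown and 27.8 and 30.4 FPKM in the controls. DERL1 had 34.7 and 36.8 FPKM in the knockdown and 43.8 and 35.9 FPKM in the controls, with overlapping groups. DERL3 was the 1 member of the 34 under the filter of 1 FPKM in 2 libraries and was not tested. Over the 9 tested ERAD genes the median difference was 0.08 (0.02 in replicate 1 and 0.22 in replicate 2), and 0.07 to 0.19 with 1 library left out. The knockdown libraries lay above both controls in 4 and below both in 2, against 19.4% and 16.6% of all tested genes.

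The mRNAs of the sensors lay close together. ATF6 had 18.1 and 16.9 FPKM in the knockdown and 20.2 and 16.1 FPKM in the controls. ATF6B, its close relative, had 15.0 and 16.6 FPKM in the knockdown and 15.9 and 16.4 FPKM in the controls. In both the groups overlapped and the 2 replicate numbers differed in sign. ERN1 (IRE1) was low, at 3.11 and 2.75 FPKM in the knockdown and 4.19 and 2.205 FPKM in the controls, so its difference of -0.06 (SE 0.28) is loosely bounded. The differences of these 3 sensors are between -0.06 and -0.03, and for ATF6B the sign turns when values are rescaled without mitochondrial genes (0.002).

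XBP1 mRNA, the substrate of IRE1 and itself a target of ATF6, differed more. It had 68.9 and 63.3 FPKM in the knockdown and 59.2 and 48.0 FPKM in the controls (66.1 ± 3.99 and 53.6 ± 7.91, SD, n = 2 each). The groups did not overlap and the difference was 0.22 in replicate 1 and 0.39 in replicate 2. The adjusted p in limma was 0.808 without and 0.104 with the run. The mean difference of 0.30 was 0.16 without control replicate 2.

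The files list 4 XBP1 transcripts, and 1 of them (ENST00000344347) lacks the segment that IRE1 removes. In GENCODE 29 (GRCh38) the segment covers 26 bases at chr22:28796122-28796147, minus strand, inside a coding exon. Its removal lengthens the coding sequence to 1128 bases, against 783 in the main transcript (ENST00000216037). Both forms are shown over chr22:28796102-28796167 with the 26 bases in capitals, because the ratio of these forms is the usual readout of IRE1 activity:

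XBP1 with the segment: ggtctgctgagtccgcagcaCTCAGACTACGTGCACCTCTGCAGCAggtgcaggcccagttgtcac
XBP1 without the segment: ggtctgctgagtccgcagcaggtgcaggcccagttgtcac

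The transcript without the segment had 2.99 and 8.66 FPKM in the knockdown and 3.01 and 4.77 FPKM in the controls. It made up 4.34% and 13.7% of the XBP1 value in the knockdown and 5.08% and 9.95% in the controls. Both groups were higher in replicate 2, and the groups overlapped fully. The share was 0.74 percentage points lower in the knockdown in replicate 1 (-0.74) and 3.74 points higher in replicate 2. The mean difference of 1.501 points turned to -3.17 without knockdown replicate 2, so no direction can be given. The share was not tested, since an exact permutation test of 2 libraries against 2 cannot reach a p under 0.05. In GENCODE 29 this transcript is also shorter (1131 bases against 1850), so the transcripts differ in more than the segment. No source used here names the annotation version behind the files.

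**Figure D3:**
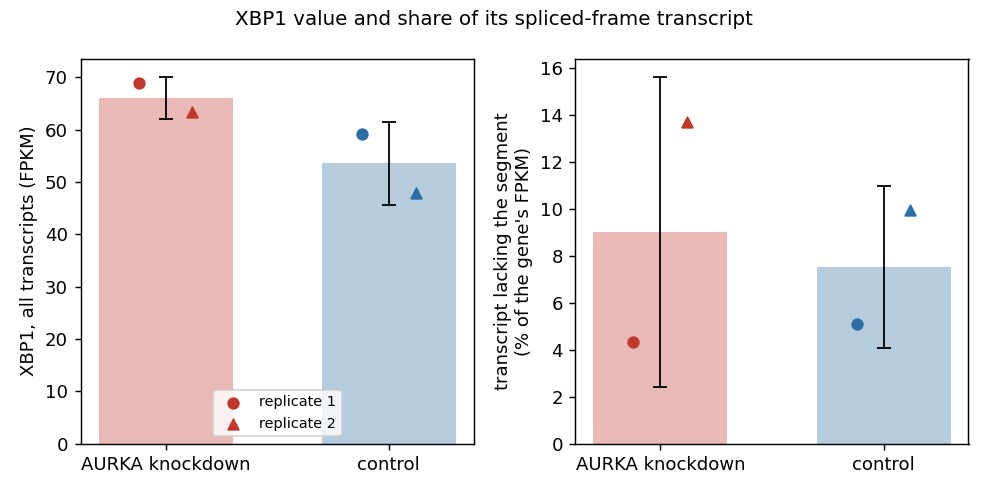
XBP1 FPKM over all transcripts (left) and the percentage of it in the transcript without the 26-base segment (right), with bars for the mean, error bars for the SD (n = 2), circles for replicate 1 and triangles for replicate 2. XBP1 values do not overlap between the groups, while the shares overlap and are higher in replicate 2 in both groups.

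Both subunits of the translocon were higher in the knockdown in both replicate numbers. SEC61B, the small subunit, had 185 and 182 FPKM in the knockdown and 149 and 166 FPKM in the controls, which did not overlap. SEC61A1, which forms the pore, had 66.8 and 83.0 FPKM in the knockdown and 53.2 and 67.7 FPKM in the controls, which overlapped narrowly. With the run as a term the adjusted p in limma was 0.186 for SEC61B and 0.0842 for SEC61A1. The SEC61A1 difference of 0.31 was 0.13 without control replicate 1 and 0.15 without knockdown replicate 2.

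Set side by side, the medians were 0.13 for chaperones and folding enzymes, 0.08 for ERAD, -0.04 for ATF6, ATF6B, ERN1 and XBP1 together, and 0.26 for the translocon. These medians were not tested against each other. Without control replicate 1 the median of the 4 genes of stress sensing was 0.20 and that of the translocon 0.14. The 12 genes with a promoter motif had a median of 0.13 and the 19 with a window and no motif 0.14. Motif genes include both HERPUD1, with the second highest difference, and SDF2L1, with the second lowest.

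**Figure D4:**
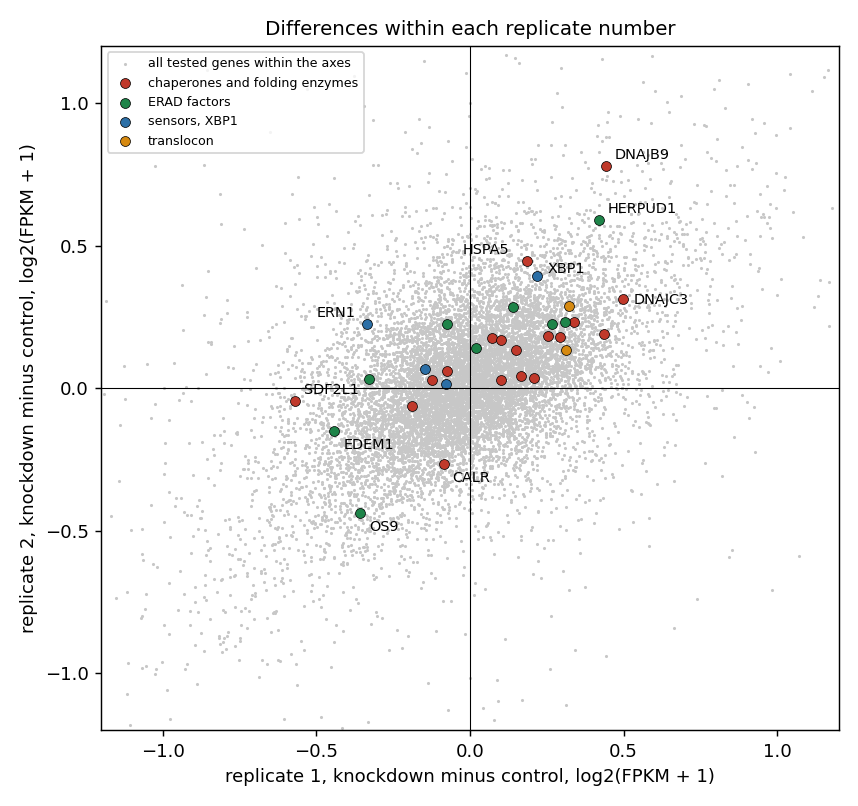
Knockdown minus control on log2(FPKM + 1) in replicate 1 (x) and replicate 2 (y) for the 33 genes in colour over all tested genes within the axes in grey. Of the 33 genes, 21 lie above 0 on both axes and 5 below 0 on both, with DNAJB9 and HERPUD1 at the upper right edge of the group.

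In a wider list of 154 further genes of ER protein handling, 148 were tested, with a median of 0.08, and 0 passed when limma left the run out. The highest of the list was AGR2, an ER disulfide isomerase, which had 55.9 and 55.5 FPKM in the knockdown and 6.004 and 7.77 FPKM in the controls (adjusted p in limma 0.0581 without and 0.000573 with the run). With the run modelled, OSTC, a subunit of the oligosaccharyltransferase that attaches N-glycans, rose as well, and 3 genes fell. These 2 of 148 genes called higher and 3 of 148 called lower are near the shares of all genes (1.53% and 1.90%). OSTC had 65.7 and 60.2 FPKM in the knockdown and 41.95 and 46.5 FPKM in the controls (adjusted p in limma 0.0442 with the run and 0.537 without). With the run and a pseudocount of 0.1 OSTC was not called and the other 4 were, and with the run and no filter 0 of the 5 were.

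The 3 that fell with the run were ITPR3, an ER calcium channel, JKAMP, a membrane protein of the ERAD machinery, and SRP54, the signal-recognition GTPase. ITPR3 had 16.7 and 15.2 FPKM in the knockdown and 28.5 and 23.8 FPKM in the controls. JKAMP had 21.9 and 20.7 FPKM in the knockdown and 35.5 and 33.8 FPKM in the controls. SRP54 had 62.4 and 61.2 FPKM in the knockdown and 92.9 and 81.2 FPKM in the controls. The groups did not overlap in any of these genes, and the adjusted p in limma was 0.0195, 0.0155 and 0.0334 with the run and 0.518, 0.402 and 0.537 without it. FKBP9, an ER prolyl isomerase and the third highest of the list, had a difference of 0.42 (adjusted p in limma 0.629 without and 0.0695 with the run).

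By role, medians of the wider genes were 0.02 to 0.14, against 0.01 over all tested genes. Within each role most mean differences were above 0, and over the 148 tested genes 104 were (70.3%). In both replicate numbers 74 of the 148 were above 0 and 29 below, against 35.3% and 31.7% of all tested genes. In 45 of the 148 the sign differed between the replicate numbers. Of 10 oligosaccharyltransferase genes 9 had a difference above 0 (median 0.14), with OSTC rising in the fit with the run. Of 13 tested genes of further disulfide isomerases and related enzymes, including the peroxiredoxin PRDX4, 11 were above 0 (median 0.13), with AGR2 rising. Of 31 further ERAD factors 19 were above 0 (median 0.05), and JKAMP fell. Of 21 genes of translocation and signal peptide removal 13 were above 0 (median 0.08), and SRP54 fell. Of 15 genes of ER calcium handling and stress survival 11 were above 0 (median 0.06), and ITPR3 fell. KDEL receptors and the COPII coat carry proteins between the ER and the Golgi. Their 20 genes had a median of 0.06 with 15 above 0, and 0 of them passed in either fit. The median of these 20 genes was -0.02 in replicate 1 and 0.09 in replicate 2, with 8 above 0 in both and 4 below in both. Among all tested genes 52.3% were above 0, and in the fit with the run 1.53% were called higher and 1.90% lower.

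The arm of the third sensor, PERK, from which genes were named after their values were seen, had 9 tested genes and 0 passed in either fit. Among all genes 0.0% passed without the run, and with it 1.53% were called higher and 1.90% lower. The median difference of the 9 genes was 0.06 (-0.05 in replicate 1 and 0.15 in replicate 2), with 7 above and 2 below 0. In both replicate numbers 3 of the 9 were above 0 and 2 below, against 35.3% and 31.7% of all genes. In the other 4 the sign differed between the replicate numbers. The smallest adjusted p in limma with the run was 0.0791, that of EIF2S1, the translation factor subunit that PERK phosphorylates. EIF2S1 had 49.7 and 60.0 FPKM in the knockdown and 60.4 and 77.9 FPKM in the controls, a difference of -0.32. Without the run its adjusted p in limma was 0.83, and the smallest of the arm was that of ATF4. EIF2AK3 (PERK) had 10.5 and 8.48 FPKM in the knockdown and 10.9 and 7.78 FPKM in the controls, which overlapped. ATF4, the factor translated when PERK is active, had 223 and 223 FPKM in the knockdown and 144 and 203 FPKM in the controls. Its groups did not overlap (difference 0.38, adjusted p in limma 0.808, and 0.137 with the run). The difference of ATF4 was 0.63 in replicate 1 and 0.13 in replicate 2. The ATF4 target DDIT3 (CHOP) had 14.0 and 19.9 FPKM in the knockdown and 15.2 and 12.5 FPKM in the controls, with opposite signs in the 2 replicate numbers. TRIB3, another target of this arm, had 9.35 and 6.88 FPKM in the knockdown and 6.66 and 6.09 FPKM in the controls, which did not overlap (difference 0.29, adjusted p in limma 0.861, and 0.25 with the run). PPP1R15A (GADD34), which ends PERK signalling, lay below both controls, at 32.8 and 39.3 FPKM in the knockdown and 48.3 and 40.5 FPKM in the controls (difference -0.29, adjusted p in limma 0.823, and 0.229 with the run).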

How the data were processed

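RNA from 2 AURKA knockdown and 2 control cultures of MDA-MB-231 was sequenced (RNeasy extraction and NEBNext Ultra RNA libraries, per the labels' protocols). Each library has its own table of 81493 transcripts. The deposited values are taken as FPKM because they are not whole and their totals differ between libraries, and the header names no unit. Per the submitters' processing notes, bcl2fastq 2.19 and HTSeq 0.8.0 were used with hg38. No source used here names the program behind the FPKM. The loci follow GRCh37 (a locus on chromosome 4 ends at 191013719, past its end in GRCh38), with starts counted from 0 and given here from 1.

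The 81412 transcripts in all 4 tables were summed to 20137 genes by gene ID. The knockdown and control tables of a replicate number share their row order and transcripts, and each number has 81 transcripts of its own, so each number was taken as 1 quantification run. Deviations of same-numbered libraries from their group means correlated at r = 0.645 across genes, which are not replicates. limma-trend (limma 3.58.1, R 4.3.3) was fitted on log2(FPKM + 1) for the 12136 genes that reached 1 FPKM in 2 or more libraries, two-sided, with Benjamini-Hochberg adjustment over all of them and a threshold of 0.05. The fit without the run is the main one, and the other adds the replicate number (a block, called the run). The script was tested on simulated data. Fold changes on this scale understate those of low genes, and without read counts no count test was run.

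The members and lists were chosen with earlier results of these data known. Named genes are all 34 members, AURKA, and of the wider list those that passed in either fit and the 3 highest and 3 lowest. EIF2AK3, EIF2S1, ATF4, DDIT3, TRIB3, PPP1R15A and the ERO1LB, HERPUD1 and OS9 transcripts were added after their values were seen. Of the wider list of 155 names 154 were matched. Promoters are RefSeq's (GRCh38.p14) and XBP1 transcripts GENCODE 29. In the files 14 of the 34 members share a locus with another gene (such as CANX, PDIA6, SYVN1 and SEC61A1), and their reads may not be fully separated. Alternatives were another pseudocount, filter or scaling, the replicate block, and leaving out each library.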

Additional observations from a re-analysis of the deposited data

How the results depend on the processing

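limma without the run called 0 of 12136 genes, 0 of the 33 members and 0 of the 148 genes of the wider list. With the run as a term (replicate block) it called 417, 1 and 5. The block combined with another choice was added after the data were seen. It gave 838 genes, 3 members and 6 wider genes with median-of-ratios scaling, 871, 3 and 7 with upper-quartile scaling, 548, 4 and 10 after rescaling without mitochondrial genes, 287, 0 and 4 with a pseudocount of 0.1, 424, 2 and 5 with a filter at 5 FPKM, and 0, 0 and 0 with no filter. HERPUD1 was called in each setting with a member called, OS9 with these scalings and the filter at 5 FPKM (-0.42, -0.40, -0.36 and -0.40), DNAJB9 with median-of-ratios and upper-quartile scaling, and CANX and SEC61A1 after rescaling without mitochondrial genes. Without the block, all genes gave 3, 2 and 1 calls with these scalings in the same order, 1 with the filter at 5 FPKM, and 6 to 14 when 1 library was left out. The wider list then had 1 call (AGR2) in each of these settings and the members 0. The block needs both libraries of a number, so leaving 1 out could not be tested with it.

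The members' median of 0.12 was 0.10 with median-of-ratios scaling and 0.16 after rescaling without mitochondrial genes, and 0.0699 to 0.14 with 1 library left out. The median over all tested genes moved too. It was 0.0119 in the main fit, -0.00632 and 0.0443 with these scalings in the same order, and -0.0238 to 0.0428 with 1 library left out. That of the chaperones was 0.11 and 0.16 with the same scalings, 0.13 (0.1346) with a pseudocount of 0.1, and 0.0683 to 0.20 with 1 library left out. With 1 library left out the median of the 4 genes of stress sensing was -0.10 to 0.20 and that of the translocon 0.14 to 0.39, and the XBP1 share differed by -3.17 to 6.18 percentage points. AURKA was not past the threshold without the block (adjusted p in limma 0.0819), nor there with a pseudocount of 0.1 (0.0636), no filter (0.501), the filter at 5 FPKM (0.0768) or no mitochondrial genes (0.095), nor with the block and no filter (0.0952). It was past it with the block (-2.22, and -2.24, -2.23, -2.19, -2.27 and -2.22 with the block and median-of-ratios scaling, upper-quartile scaling, no mitochondrial genes, a pseudocount of 0.1 and the filter at 5 FPKM), with median-of-ratios (-2.24) and upper-quartile scaling (-2.23), and with 1 library left out (-2.38 to -2.06). In fits with 1 library left out, the lone library of a group is assumed to vary like the other group, so their calls are no sign of stability. The cause of these changes was not tested.

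Rescaling without mitochondrial genes, with or without the block, turned HSP90B1 to 0.0285 and ATF6B to 0.00204. This rescaling applies the same factor to all genes of a library. It moved the median over all tested genes from 0.0119 to 0.0443. With 1 library left out the sign turned in 10 members, whose differences spanned -0.10 to 0.0828 for HSP90B1, -0.19 to 0.40 for DNAJB11, -0.36 to 0.00791 for CALR, -0.0147 to 0.45 for P4HB, -0.16 to 0.0668 for ERO1L, -0.38 to 0.13 for ERO1LB, -0.0722 to 0.22 for EDEM3, -0.20 to 0.12 for ATF6, -0.10 to 0.0401 for ATF6B and -0.40 to 0.29 for ERN1. No read totals are given, so counting error is unknown.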
